A study of Arabidopsis thaliana with 12 samples.

Results

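Flower buds of Arabidopsis carry pollen at many stages, and the genes described here are those of its last stages: mature pollen, the pollen tube and the sperm cells. The set holds 36 genes of 33610 in the file, named by their known function as receptor kinases, signalling proteins, channels and pumps, sugar carriers, pectin methylesterases, actin regulators and syntaxins, transcription factors and sperm genes. Each was matched by its gene identifier, and 30 of the 36 reached an FPKM (fragments scaled for transcript length and library size) of 1 in at least 3 libraries, as did 20715 genes in all. In wild-type buds 10 of these 30 genes fell at 38 °C and 0 rose, where 6.43% of all tested genes fell and 6.40% rose. With 1 library left out, 4 to 12 passed, and the share of all genes was not counted there. In bzip17 mutant buds 1 rose and 0 fell, where 6.08% of all genes rose and 6.44% fell. With the replicate number as a block, a choice made on these data, STP9 and SYP124 fell there too. Between the genotypes 0 of 30 passed the test at 22 °C or at 38 °C, where at most 0.00965% of all genes did in either direction. For the difference of heat responses between genotypes 0 of 30 passed, where 0% of all genes did.

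A pollen grain holds a vegetative cell, which grows the tube, and the sperm cells that the tube delivers to the ovule. The tube grows at its tip under a calcium gradient and ROP GTPase signalling, and receptor kinases of the cell surface hold its wall and membrane together until it bursts at the egg apparatus. Pollen stores many transcripts for this growth while it matures in the anther, before any tube forms.

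The libraries came from unopened buds of stage 1 to 12 in 4 groups of 3 biological replicates. The groups are bzip17 held at 38 °C for 6 h, bzip17 kept at 22 °C, wild type (WT) held at 38 °C for 6 h and WT kept at 22 °C. The mutant bzip17 is the T-DNA insertion line SALK_104326 in the Col-0 background, which is also the WT, and bZIP17 is a membrane-anchored transcription factor of the endoplasmic reticulum stress response. A single insertion line stands for the mutant, and every replicate pooled the buds of 8 plants, so variation between plants is not seen.

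Total counts ran from 38.6 to 71.8 M (mega) per library. The share taken by 15 ribosomal RNA (rRNA) loci ran from 1.43 to 64.8%, and it was over 10% in 4 libraries: replicates 2 and 3 of WT at 22 °C, replicate 1 of WT at 38 °C and replicate 1 of bzip17 at 22 °C. Levels below are therefore counts relative to library size (CPM) after TMM scaling, which takes such composition into account, and levels compared between genes are FPKM divided by the same factor (scaled FPKM). bZIP17 itself (AT2G40950) had 8.22 to 10.3 CPM in bzip17 at 38 °C and 3.50 to 5.74 CPM in bzip17 at 22 °C, against 45.2 to 51.1 CPM in WT at 38 °C and 31.7 to 45.1 CPM in WT at 22 °C. All 6 mutant libraries lay below all 6 WT libraries. For the late pollen genes replicate 1 of bzip17 at 38 °C stood apart, as the lowest library of its group for all 30 tested members (31.6% of all genes).

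Late pollen transcripts were plainly present in these closed buds. Of the 11 members that mark mature pollen best, VGD1, ANX1, ANX2, CPK34, STP11, PRF4, PRF5, ADF7 and the sperm histone MGH3 reached the expression limit, while the sperm genes DUO1 and HAP2 did not. The highest levels per length belonged to the pectin methylesterases, enzymes that modify the pectin of the tube wall. In WT at 22 °C they were 269 ± 51.6 scaled FPKM for VGD1, 203 ± 38.4 for VGDH1 and 161 ± 44.1 for PPME1 (SD, n = 3), and neighbours in this order overlap within 1 SD. The proton pump AHA8 came next with 83 ± 12.9 scaled FPKM, the sugar carrier STP11 with 52.4 ± 10.4 and the receptor kinase BUPS1 with 42.0 ± 7.33, of which STP11 and BUPS1 overlap within 1 SD. At the low end of the 30 were AGL66 with 1.93 ± 1.09 scaled FPKM and MYB97 with 1.53 ± 1.48, both transcription factors. In bulk tissue, fewer pollen cells and less RNA per pollen cell cannot be told apart.

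The 6 members below the limit were RBOHH and RBOHJ, NADPH oxidases of the tube tip, the MYB factor MYB120, and the sperm genes DUO1, GEX2 and HAP2. Their third-highest FPKM lay between 1e-04 for GEX2, the value the file gives to 0 counts, and 0.861 for DUO1, and just inside the limit it was 1.63 for MYB97, 2.44 for AGL66 and 2.86 for SPIK. GEX2, a sperm surface protein, had 0 counts in 11 libraries and 295 counts in replicate 2 of bzip17 at 22 °C, and its coordinates overlap AT5G49152. MYB120, which acts with MYB97 and MYB101 in the tube when it meets the ovule, had 0 counts in all 6 libraries at 22 °C. It had 0.206, 0.836 and 1.16 CPM in bzip17 at 38 °C and 2.67, 0.214 and 0.896 CPM in WT at 38 °C. A floor of 3 counts per library at 22 °C averaged 0.0621 CPM in bzip17 and 0.104 CPM in WT. The lowest 38 °C libraries, at 0.206 CPM in bzip17 and 0.214 CPM in WT, lay nearest to it. Set against that floor, the group mean of MYB120 was at least 11.8-fold higher at 38 °C in bzip17 and at least 12.1-fold higher in WT. These limits cover counting error only, and they move with single libraries: in a check chosen after seeing the data, the bound for WT was 5.32 without replicate 1 at 38 °C and 21.3 without replicate 3 at 22 °C, and for bzip17 it lay between 8.38 and 16 with any 1 library left out.

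**Figure D1:**
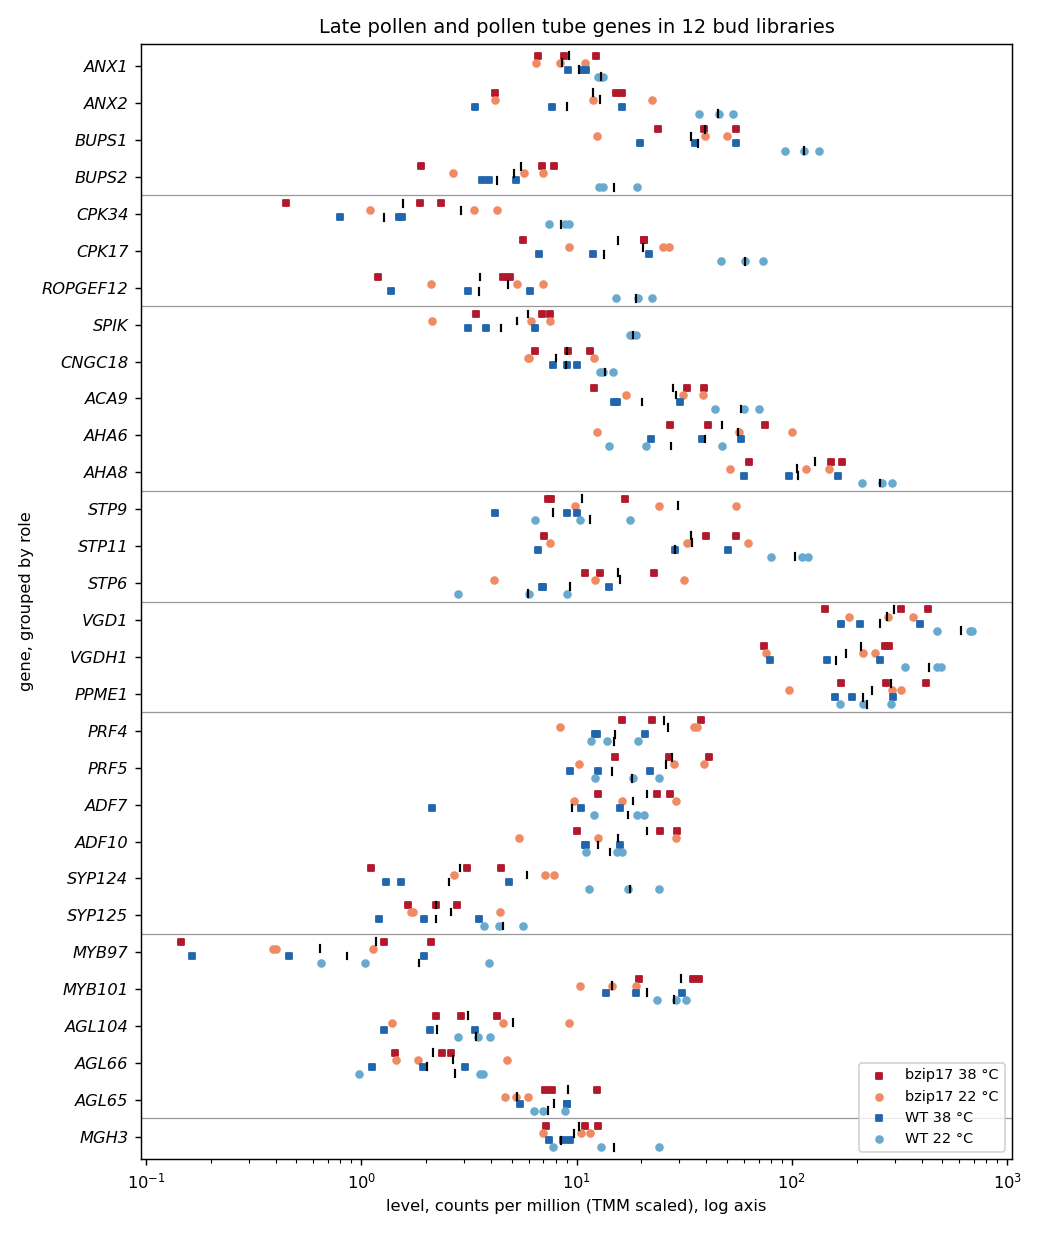
Level of the 30 tested genes in each of the 12 libraries, in CPM on a log axis, with genes grouped by role. Symbols are single libraries, with bzip17 at 38 °C, bzip17 at 22 °C, WT at 38 °C and WT at 22 °C from top to bottom in each row, and black ticks are group means. For 15 of the 30 genes the 3 libraries of WT at 22 °C sit to the right of the other 9.

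Several members are near copies of each other, which bears on how reads were shared out. VGD1 and VGDH1 lie beside each other on chromosome 2 and are identical at 91.8% of aligned coding bases, with a longest identical run of 74 bases, so their split of reads is uncertain. CPK34 and CPK17 share 86.0% and a run of 49 bases. The pairs ADF7 and ADF10, PRF4 and PRF5, BUPS1 and BUPS2, SYP124 and SYP125, AGL104 and AGL66, RBOHH and RBOHJ, and ANX1 and ANX2 share 81.3 to 85.3%. BUPS1 also overlaps AT4G39120 in its coordinates, and reads in the shared stretch cannot be assigned to either gene without strand.

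The 250 bases before each RefSeq gene start (build TAIR10.1) were searched on both strands for GAANNTTC, a heat shock element core, for AACCG, a core bound by DUO1-type MYB factors of the male germline, and for the G box CACGTG, which do not overlap in any window printed here. AACCG stood in 10 of 36 members against 23.2% of 27443 promoters, and these included all 4 sperm genes and none of the 10 genes that fell in WT. GAANNTTC stood in 5 members (CPK17, RBOHH, RBOHJ, STP9 and AGL66) against 9.55% of promoters, and CACGTG in 2 (PRF5 and GEX2) against 6.49%. Among the common pollen motifs, AGAAA was in 33 members against 82.5% and GTGA in 28 against 77.5%. The windows below show SYP124, SPIK and CPK17, which fell in WT, MYB101, which rose in bzip17, MYB120, seen only at 38 °C, and the sperm genes DUO1 and MGH3. They run 5′ to 3′ on the strand of the gene, and capitals mark GAANNTTC in CPK17 and AACCG or its complement in MYB120, DUO1 and MGH3. Letters all in lower case mean that none of the 3 cores is in that window. The core of CPK17 begins 170 bases before the RefSeq gene start and that of MYB120 begins 199 bases before it. RefSeq and the TAIR10 models behind the counts share a gene start or end for 46.7 to 49.6% of genes per chromosome. CPK17 starts at 3936813 in RefSeq and at 3937024 in those models, so a window can lie upstream of the start used for counting.
SYP124, chr1:22604527-22604776, plus strand: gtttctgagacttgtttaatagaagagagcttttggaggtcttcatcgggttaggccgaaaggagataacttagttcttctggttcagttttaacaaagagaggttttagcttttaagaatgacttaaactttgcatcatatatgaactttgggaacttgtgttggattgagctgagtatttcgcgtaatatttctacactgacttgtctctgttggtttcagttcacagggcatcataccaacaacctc
SPIK, chr2:10894003-10894252, plus strand: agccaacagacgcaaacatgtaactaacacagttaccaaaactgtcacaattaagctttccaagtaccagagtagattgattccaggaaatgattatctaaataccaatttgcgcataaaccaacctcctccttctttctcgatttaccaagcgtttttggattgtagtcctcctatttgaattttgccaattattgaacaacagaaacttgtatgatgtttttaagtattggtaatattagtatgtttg
CPK17, chr5:3936563-3936812, plus strand: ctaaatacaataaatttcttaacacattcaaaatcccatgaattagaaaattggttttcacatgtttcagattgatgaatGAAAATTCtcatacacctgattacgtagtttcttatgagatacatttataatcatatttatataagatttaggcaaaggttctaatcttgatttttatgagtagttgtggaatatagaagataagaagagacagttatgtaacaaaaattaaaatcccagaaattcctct
MYB101, chr2:13784484-13784733, minus strand: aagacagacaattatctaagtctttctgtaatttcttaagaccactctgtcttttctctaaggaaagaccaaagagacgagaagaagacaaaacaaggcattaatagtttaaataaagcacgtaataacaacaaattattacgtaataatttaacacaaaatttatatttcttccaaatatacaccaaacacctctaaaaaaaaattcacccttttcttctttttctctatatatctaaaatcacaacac
MYB120, chr5:22326419-22326668, minus strand: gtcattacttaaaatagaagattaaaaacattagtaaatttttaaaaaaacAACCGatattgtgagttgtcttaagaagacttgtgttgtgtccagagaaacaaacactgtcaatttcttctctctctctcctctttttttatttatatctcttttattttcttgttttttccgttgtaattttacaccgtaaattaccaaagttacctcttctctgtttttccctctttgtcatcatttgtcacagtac
DUO1, chr3:22343577-22343826, minus strand: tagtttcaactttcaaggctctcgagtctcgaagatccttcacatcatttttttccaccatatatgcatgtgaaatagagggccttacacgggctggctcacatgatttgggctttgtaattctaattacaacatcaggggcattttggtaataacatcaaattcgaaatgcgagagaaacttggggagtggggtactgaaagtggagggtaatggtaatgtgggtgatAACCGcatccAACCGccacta
MGH3, chr1:6904713-6904962, plus strand: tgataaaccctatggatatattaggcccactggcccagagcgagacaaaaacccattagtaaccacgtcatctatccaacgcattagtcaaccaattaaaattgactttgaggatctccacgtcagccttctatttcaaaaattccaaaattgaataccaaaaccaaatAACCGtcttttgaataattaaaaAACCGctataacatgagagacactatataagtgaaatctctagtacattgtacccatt

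How did 6 h at 38 °C change late pollen genes in WT buds? The 10 genes that fell are 3 of 4 receptor kinases, all 3 tested signalling genes, 2 of 5 channels and pumps, 1 of 3 pectin methylesterases and 1 of 6 actin regulators and syntaxins. That is 33.3% of the members, where 6.43% of all 20715 genes fell and 6.40% rose (edgeR's quasi-likelihood test, Benjamini-Hochberg adjusted p under 0.05 and more than 2-fold). The members had a median log2 change of -0.95, against 0.02 over all genes, and 26 of 30 were lower at 38 °C, where 48.9% of all genes were lower and 51.1% higher. At an unadjusted p under 0.05, 14 members were lower and 0 higher, where 19.5% of all genes were lower and 20.2% higher. By DESeq2 12 members fell and 0 rose, VGDH1 and AHA8 being added, where 7.49% of all genes fell and 7.33% rose.

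All 4 receptor kinases were lower at 38 °C, and 3 of them fell. ANX2 (AT5G28680, chromosome 5, 10719437 to 10722013 on TAIR10), which keeps the growing tube intact, had 16.2, 7.66 and 3.36 CPM in WT at 38 °C, against 45.9, 53.0 and 37.2 CPM in WT at 22 °C. It fell by 2.32 on the log2 scale (SE 0.67, adjusted p = 0.0254). BUPS1 (AT4G39110, chromosome 4, 18222483 to 18225119), a partner of the ANX kinases, had 55.1, 35.3 and 19.8 CPM in WT at 38 °C and 114, 134 and 93.3 CPM in WT at 22 °C. The groups do not overlap, and BUPS1 fell by 1.63 (SE 0.48, adjusted p = 0.0276). Its copy BUPS2 (AT2G21480, chromosome 2, 9202753 to 9205368) had 5.25, 3.64 and 3.91 CPM in WT at 38 °C against 13.2, 19.1 and 12.7 CPM at 22 °C, and fell by 1.81 (SE 0.48, adjusted p = 0.0172). ANX1, the paralog of ANX2, averaged 10.2 ± 1.02 CPM at 38 °C and 12.9 ± 0.290 CPM at 22 °C, a log2 change of -0.34 that did not pass (adjusted p = 0.337).

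The tested signalling genes had a median log2 change of -2.42, the lowest of the role groups. CPK34 (AT5G19360, chromosome 5, 6521716 to 6523780), a calcium-dependent kinase of tube growth, had 1.55, 1.5 and 0.795 CPM in WT at 38 °C and 8.82, 9.19 and 7.48 CPM in WT at 22 °C. It fell by 2.73 (SE 0.61, adjusted p = 0.00768). Its near copy CPK17 (AT5G12180, chromosome 5, 3937024 to 3939596) had 21.8, 11.9 and 6.68 CPM at 38 °C against 60.7, 73.4 and 47.0 CPM at 22 °C, and fell by 2.17 (SE 0.55, adjusted p = 0.0142). For both kinases all 38 °C libraries lay below all 22 °C libraries. ROPGEF12 (AT1G79860, chromosome 1, 30042092 to 30044175), which activates the ROP GTPases of the tip, had 6.09, 3.14 and 1.37 CPM at 38 °C against 15.2, 22.3 and 19.3 CPM at 22 °C, and fell by 2.42 (SE 0.62, adjusted p = 0.0150).

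Among channels and pumps the potassium channel SPIK and the calcium pump ACA9 fell. SPIK (AT2G25600, chromosome 2, 10894486 to 10898642) had 6.40, 3.80 and 3.14 CPM in WT at 38 °C, and its 22 °C libraries stood close together at 17.8, 18.8 and 18.1 CPM. It had the smallest p of all members and fell by 2.04 (SE 0.45, adjusted p = 0.00684). ACA9 (AT3G21180, chromosome 3, 7425519 to 7432200), which moves calcium out across the plasma membrane, had 30.3, 15.4 and 14.9 CPM at 38 °C against 60.1, 70.3 and 43.8 CPM at 22 °C, and fell by 1.53 (SE 0.44, adjusted p = 0.0245). The proton pump AHA8 averaged 107 ± 52.7 CPM at 38 °C and 255 ± 40.7 CPM at 22 °C, without overlap, and missed the threshold (log2 change -1.25, adjusted p = 0.0598). The calcium channel CNGC18 averaged 8.95 ± 1.16 CPM at 38 °C and 13.6 ± 0.997 CPM at 22 °C (log2 change -0.60, adjusted p = 0.149). The other proton pump, AHA6, had 39.4 ± 17.9 CPM at 38 °C and 27.6 ± 17.5 CPM at 22 °C (log2 change 0.51, adjusted p = 0.6), with overlapping groups.

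The sugar carriers, which import glucose and related sugars, did not pass the test in WT. STP11 averaged 28.6 ± 21.9 CPM at 38 °C and 104 ± 20.9 CPM at 22 °C, a log2 change of -1.86 with a wide standard error of 0.84 (adjusted p = 0.121). STP9 averaged 7.76 ± 3.14 CPM and STP6 9.35 ± 4.13 CPM at 38 °C, against 11.5 ± 5.74 CPM and 5.93 ± 3.10 CPM at 22 °C. Of the pectin methylesterases, VGD1 (AT2G47040, chromosome 2, 19327896 to 19330197) had 392, 208 and 169 CPM at 38 °C against 675, 689 and 474 CPM at 22 °C, and fell by 1.26 (SE 0.41, adjusted p = 0.0420). Its neighbour VGDH1 averaged 160 ± 89.5 CPM at 38 °C and 433 ± 84.0 CPM at 22 °C and missed the threshold (log2 change -1.43, adjusted p = 0.0740). PPME1 had nearly equal means of 215 ± 71.8 CPM at 38 °C and 224 ± 61.8 CPM at 22 °C (log2 change -0.06, SE 0.43).

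The syntaxin SYP124 (AT1G61290, chromosome 1, 22605009 to 22606216), a membrane fusion protein of the tube, had 4.85, 1.53 and 1.30 CPM in WT at 38 °C, against 17.3, 24.2 and 11.4 CPM at 22 °C. With a log2 change of -2.79 (SE 0.64, adjusted p = 0.00845) it had the largest estimated fall of the 30. Its copy SYP125 averaged 2.22 ± 1.17 CPM at 38 °C and 4.57 ± 0.977 CPM at 22 °C (log2 change -1.04, adjusted p = 0.129). The actin regulators of pollen, the profilins PRF4 and PRF5 and the depolymerizing factors ADF7 and ADF10, had log2 changes of 0.01, -0.32, -0.86 and -0.18, each within 1.5 standard errors of 0. None of the 5 tested transcription factors passed: MYB97, MYB101, AGL104, AGL66 and AGL65 had log2 changes of -1.15, -0.42, -0.62, -0.45 and 0.08. The sperm histone MGH3 averaged 8.46 ± 0.967 CPM at 38 °C and 15.0 ± 8.39 CPM at 22 °C (log2 change -0.84, adjusted p = 0.107).

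In 16 of the 30 members every WT library at 38 °C lay below every WT library at 22 °C, where 21.9% of all genes did so, and 0 lay above, against 22.8%. The number that fell depended on single libraries: it was 4 without replicate 3 of WT at 38 °C, 5 without replicate 2 of that group and 5 without replicate 2 of WT at 22 °C, while SPIK, CPK34, SYP124 and ROPGEF12 fell whichever library was left out. The share of all genes in these fits was not counted. Without the 4 rRNA-rich libraries WT at 22 °C keeps 1 library, whose spread is then assumed to be like that of the other groups, and 1 member passed, SYP124, with a member median of -1.64.

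**Figure D2:**
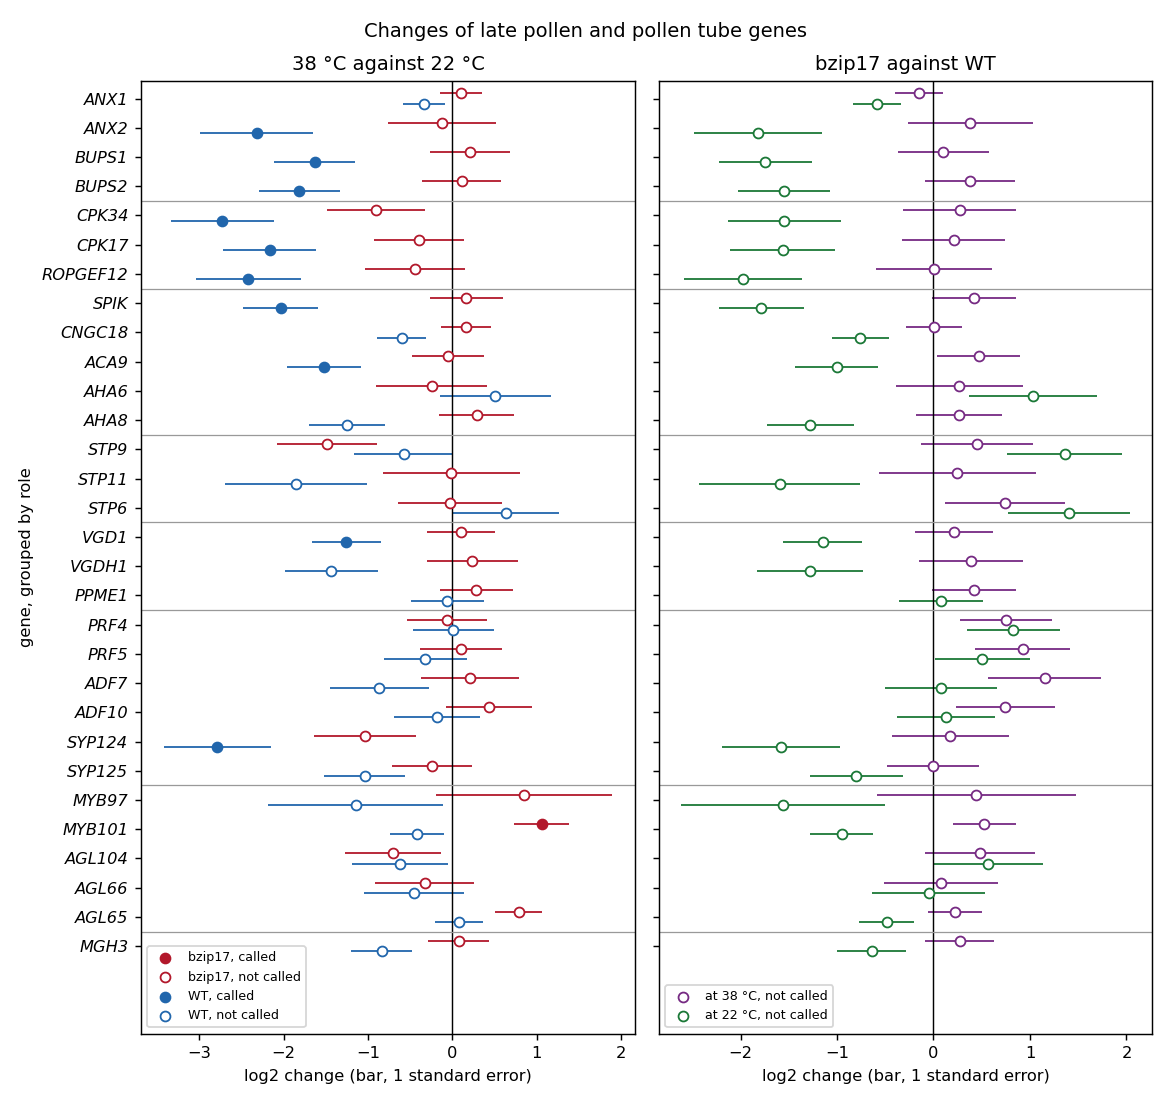
Log2 change of each tested gene at 38 °C against 22 °C (left, bzip17 and WT) and in bzip17 against WT (right, at 38 °C and at 22 °C), with bars of 1 standard error. Filled points passed the test: 10 genes in WT, all below 0, and MYB101 in bzip17, above 0.

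In bzip17 buds the same treatment left the median of late pollen genes near that of all genes. The median log2 change of the 30 members was 0.09, against -0.05 over all genes, with 16 higher and 14 lower (46.7% and 53.3% of all genes). MYB101 rose and no member fell, where 6.08% of all genes rose and 6.44% fell. By DESeq2 MYB101 rose and STP9 fell, where 6.84% of all genes rose and 7.04% fell. At an unadjusted p under 0.05 by edgeR 2 members were higher and 1 lower, against 18.3% and 20.4% of all genes. MYB101 (AT2G32460, chromosome 2, 13782208 to 13784471), a MYB factor the tube needs to be received by the ovule, had 19.5, 34.8 and 37.2 CPM in bzip17 at 38 °C against 10.4, 14.6 and 18.9 CPM in bzip17 at 22 °C. It rose by 1.06 on the log2 scale (SE 0.33, adjusted p = 0.0314), and that call was lost without replicate 1 (adjusted p = 0.106) or 2 (adjusted p = 0.0702) of bzip17 at 22 °C and without replicate 2 (adjusted p = 0.0986) or 3 (adjusted p = 0.107) of bzip17 at 38 °C. Without replicate 2 of bzip17 at 22 °C the count of members called stayed at 1, so a member other than MYB101 passed there. Only MYB101 and AGL65 were higher at 38 °C without overlap, 2 of 30 members against 22.1% of all genes, and 0 were lower without overlap, against 21.0%. Without replicate 1 of bzip17 at 38 °C, the library that stood apart, the member median was 0.34 and MYB101 still rose (adjusted p = 0.0168).

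AGL65, a MADS-domain factor of pollen maturation (AT1G18750, chromosome 1, 6466761 to 6469984), had 7.17, 12.5 and 7.70 CPM in bzip17 at 38 °C and 4.66, 5.24 and 5.93 CPM in bzip17 at 22 °C. Its log2 change of 0.79 (SE 0.28) did not pass (adjusted p = 0.0562). STP9 (AT1G50310, chromosome 1, 18635984 to 18638110) had 7.40, 7.60 and 16.8 CPM at 38 °C against 24.2, 9.86 and 54.8 CPM at 22 °C, with a log2 change of -1.49 (SE 0.59, adjusted p = 0.0829). Deviations of same-numbered bzip17 libraries correlated weakly, at 0.208, 0.252 and 0.266. That pairing was taken from these data and is not in the labels. With the replicate number as a block 3 members passed, where 1201 of 20715 genes rose and 1261 fell. There MYB101 had 1.03 (adjusted p = 0.0110), STP9 had -1.30 (adjusted p = 0.0358) and SYP124 had -1.11 (adjusted p = 0.0499).

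The 10 genes that fell in WT had these values in bzip17. SYP124 had 1.11, 4.47 and 3.09 CPM at 38 °C against 2.69, 7.13 and 7.87 CPM at 22 °C, and CPK34 had 0.448, 2.34 and 1.88 CPM against 1.1, 3.34 and 4.25 CPM. For SPIK the libraries read 3.41, 7.54 and 6.90 CPM at 38 °C, against 2.13, 6.17 and 7.52 CPM at 22 °C. Those groups overlap for all 3 genes, as they do for the other 7. Between libraries of the same number, SYP124, CPK34, CPK17, ROPGEF12 and the sugar carrier STP9 were lower at 38 °C in all 3 pairs. That is 5 of 30 members, where 29.9% of all genes were lower in all pairs. In the other direction, 4 members (ANX1, AHA8, MYB101 and AGL65) were higher in all 3 pairs, where 28.9% of all genes were. ANX2 had 4.20, 16.2 and 15.2 CPM at 38 °C against 4.18, 22.5 and 11.9 CPM at 22 °C. BUPS1 stood at 23.8, 55.2 and 39.1 CPM at 38 °C against 12.5, 49.7 and 39.7 CPM at 22 °C, and BUPS2 at 1.90, 6.89 and 7.85 CPM against 2.67, 5.70 and 6.98 CPM. In each of these receptor kinases replicate 1 was the lowest library at both temperatures. CPK17 had 5.65, 20.6 and 20.5 CPM at 38 °C against 9.19, 26.9 and 25.1 CPM at 22 °C. ROPGEF12 had 1.19, 4.91 and 4.57 CPM against 2.10, 7.02 and 5.29 CPM. ACA9 had 12.0, 32.6 and 39.2 CPM at 38 °C against 16.9, 31.2 and 38.7 CPM at 22 °C, and VGD1 had 143, 320 and 430 CPM against 185, 280 and 365 CPM. Their log2 changes in bzip17 ran between -1.03 for SYP124 and 0.21 for BUPS1.

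**Figure D3:**
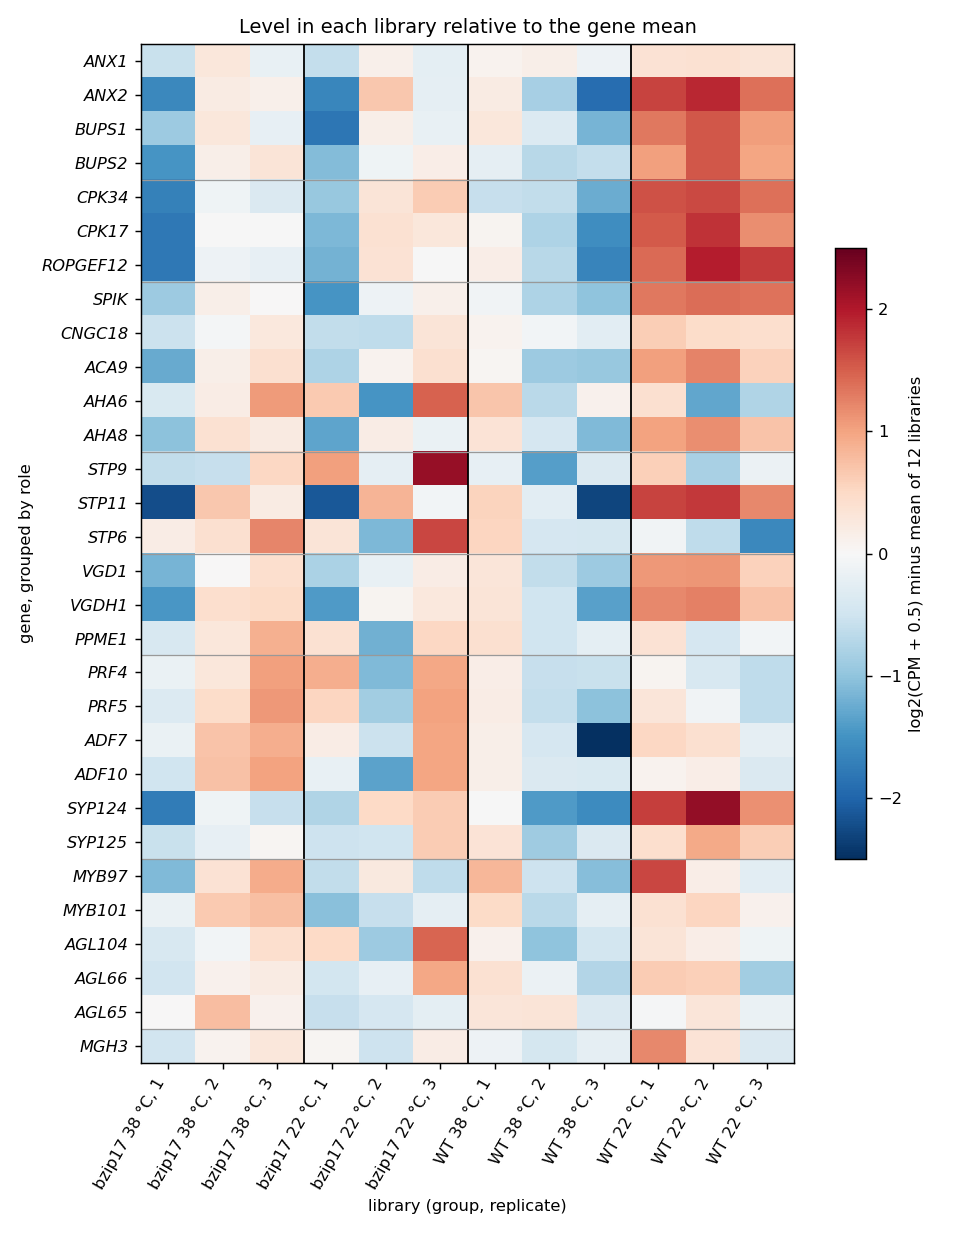
Level of each tested gene in each library, as log2(CPM + 0.5) minus the mean of the gene over the 12 libraries, with groups from bzip17 at 38 °C (left) to WT at 22 °C (right). The columns of WT at 22 °C are red for the receptor kinases and signalling genes, and the column of replicate 1 of bzip17 at 38 °C is the lowest of its group for all 30 genes.

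At 22 °C, did bzip17 buds differ from WT buds in these genes? By edgeR 0 of 30 members passed, where 0.00965% of all genes were called lower and 0% higher. At an unadjusted p under 0.05, however, 15 members were lower in bzip17 and 2 higher, against 4.69% and 5.10% of all genes. By DESeq2 2 members passed, SPIK (log2 change -1.79, adjusted p = 0.0143) and BUPS1 (-1.76, adjusted p = 0.0195), where 0.237% of all genes were called lower and 0.0869% higher. The member median was -0.88 against 0.02 over all genes, with 21 lower and 9 higher (46.8% and 53.1% of all genes). In 17 of 30 members every bzip17 library lay below every WT library at 22 °C, where 6.47% of all genes did so, and 0 members lay above, against 5.53%. The 15 genes lower at an unadjusted p under 0.05 were the 4 receptor kinases, the 3 tested signalling genes, SPIK, CNGC18, ACA9, AHA8, VGD1, VGDH1, SYP124 and MYB101. Their log2 changes ran between -1.97 for ROPGEF12 and -0.59 for ANX1.

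SPIK had 2.13, 6.17 and 7.52 CPM in bzip17 at 22 °C, against 17.8, 18.8 and 18.1 CPM in WT at 22 °C, and had the smallest p (log2 change -1.78, SE 0.44, adjusted p = 0.382). BUPS1 had 12.5, 49.7 and 39.7 CPM in bzip17 against 114, 134 and 93.3 CPM in WT (log2 change -1.74, SE 0.48, adjusted p = 0.422). BUPS2 had 2.67, 5.70 and 6.98 CPM in bzip17 against 13.2, 19.1 and 12.7 CPM in WT (log2 change -1.55, SE 0.48, adjusted p = 0.422). All 3 genes were apart in every library. The 2 members higher at an unadjusted p under 0.05 were the sugar carriers STP9, with 29.6 ± 23.0 CPM in bzip17 and 11.5 ± 5.74 CPM in WT, and STP6, with 15.9 ± 14 CPM and 5.93 ± 3.10 CPM. Both overlap between the genotypes. AHA6 (log2 change 1.03), PRF4 (0.83), AGL104 (0.56) and PRF5 (0.51) were also higher in the mutant and had adjusted p from 0.587 to 0.780.

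At 38 °C no late pollen gene separated bzip17 from WT. By edgeR 0 of 30 members passed, where 0.00483% of all genes were called higher and 0.00965% lower, and by DESeq2 0 passed, against 0.0241% and 0.154%. At an unadjusted p under 0.05 edgeR gave 0 members (1.14% of all genes higher and 3.28% lower), and DESeq2 gave 2 higher and 0 lower (1.40% and 3.48%). The member median was 0.32 against -0.0024 over all genes, and 28 of 30 members were higher in bzip17, where 49.5% of all genes were higher and 50.5% lower. In no member did the 2 genotypes lie apart, where 4.80% of all genes were higher and 6.99% lower without overlap. The actin depolymerizing factor ADF7 (AT4G25590, chromosome 4, 13058936 to 13060107) had 12.6, 23.6 and 27.2 CPM in bzip17 at 38 °C, against 15.9, 10.5 and 2.14 CPM in WT at 38 °C (log2 change 1.15, SE 0.59). The profilin PRF5 (AT2G19770, chromosome 2, 8519638 to 8521192) had 15.1, 26.9 and 41.4 CPM in bzip17 against 22.0, 12.6 and 9.29 CPM in WT (log2 change 0.93, SE 0.49). MYB101 had 19.5, 34.8 and 37.2 CPM in bzip17 against 30.9, 13.7 and 18.9 CPM in WT (log2 change 0.53, SE 0.32), and all 3 had an adjusted p of 1 by edgeR. In each of these genes the lowest bzip17 library, replicate 1, lay below the highest WT library. The member median moved to 0.68 without that bzip17 library, and to 0.04 without replicate 3 of WT at 38 °C.

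Did the heat response differ between the genotypes? The difference of the log2 changes, bzip17 minus WT, had a median of 1.22 over the members and -0.05 over all genes, and 25 of 30 were above 0, where 43.3% of all genes were above and 56.7% below. No member passed at an adjusted p under 0.05 by edgeR or DESeq2, where 0% of the 20715 genes did so by edgeR and 0.0145% in each direction by DESeq2. At an unadjusted p under 0.05, 11 members were above 0 and 0 below by edgeR, where 2.07% of all genes were above and 2.25% below, and by DESeq2 13 were above and 0 below, against 2.64% and 2.16%. SPIK had a difference of 2.20 (SE 0.62), MYB101 of 1.48 (SE 0.46) and BUPS2 of 1.92 (SE 0.67), each with an adjusted p of 1 by edgeR. The member median was 1.52 without replicate 1 of bzip17 at 38 °C. The heat response in WT, the genotype difference at 22 °C and this difference all use the same 3 libraries of WT at 22 °C, so they are not independent of each other.

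Those 3 libraries stood apart for many members. In 15 of 30 each of them lay above all 9 other libraries, where 3.46% of all genes did so: ANX1, ANX2, BUPS1, BUPS2, CPK34, CPK17, ROPGEF12, SPIK, CNGC18, ACA9, AHA8, STP11, VGD1, VGDH1 and SYP124. For 6 of 30 members the highest group mean was that of bzip17 at 38 °C (25.4% of all genes) and for 5 that of bzip17 at 22 °C (26.1%). It was never that of WT at 38 °C (21.7%), and for 19 it was that of WT at 22 °C (26.8%). The rRNA shares of the 3 WT libraries at 22 °C were 3.76, 15.1 and 64.8%. Replicate 3, the richest in rRNA, was the lowest of the 3 for 24 of 30 members (39.3% of all genes). Replicate 1 was the highest for 12 members (32.6% of all genes) and replicate 2 for 18 (31.7%).

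Replicates of a group lay farther apart for these genes than for the median gene of the transcriptome. The ratio of the highest to the lowest replicate had a median over the members of 2.57 in bzip17 at 38 °C, 3.23 in bzip17 at 22 °C, 2.39 in WT at 38 °C and 1.5 in WT at 22 °C. Over all genes these medians were 1.29, 1.51, 1.41 and 1.37. In bzip17 at 38 °C replicate 1 was the lowest for all 30 members (31.6% of all genes), and in WT at 38 °C replicate 1 was the highest for 28 (31.1%) and replicate 3 the lowest for 21 (32.7%). In bzip17 at 22 °C replicate 3 was the highest for 22 members (32.2% of all genes). The lowest was replicate 1 for 18 (32.1%) and replicate 2 for 11 (30.3%). The rRNA share was 2.64% in replicate 1 of bzip17 at 38 °C, 20.7% in replicate 1 of bzip17 at 22 °C and 19.0% in replicate 1 of WT at 38 °C, which are the lowest, the most often lowest and the most often highest libraries of their groups. Genes chosen after their values were seen show how these differ: replicate 1 was low for STP11, with 7.54, 62.6 and 32.6 CPM, while replicate 2 was low for PPME1, with 291, 96.9 and 320 CPM.

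Other genes of the same roles, on a list of 50 that holds no member, were counted in the same way. That list, too, was chosen with earlier results of these data known, so it is not an independent check. Of 46 tested, 15 fell in WT at 38 °C and 0 rose (6.43% and 6.40% of all genes), with a median log2 change of -1.38. Among the 15 were the pollen receptor kinase PRK2 (-1.82, adjusted p = 0.0242) and the proton exchanger CHX23 (-3.13, adjusted p = 0.0227). The cell wall extensin LRX9 (-1.87, adjusted p = 0.0183) and the calcium-dependent kinase CPK24 (-2.03, adjusted p = 0.0423) fell too. By sign 38 of the 46 were lower and 8 higher, where 48.9% of all genes were lower and 51.1% higher. The highest estimate was 1.88 for AGL94 (adjusted p = 0.0939), and PIP5K5 was higher under the fold limit (0.94, adjusted p = 0.0336). In bzip17 0 of 46 passed with heat (median 0.06), where 6.08% of all genes rose and 6.44% fell. Between genotypes 0 passed, where at most 0.00965% of all genes did in either direction. The medians were 0.29 at 38 °C and -0.84 at 22 °C. Of 8 other sperm genes 5 were tested, and in WT DAZ3 (-2.05, adjusted p = 0.00224) and TIP5;1 (-1.55, adjusted p = 0.0173) fell. In WT 4 of the 5 were lower at 38 °C and 1 was higher, with a median of -1.19, and the one higher was DMP8 (2.21, adjusted p = 0.0851). With heat in bzip17 4 were lower and 1 higher, again DMP8 (1.78, adjusted p = 0.145), with a median of -0.56 and 0 called. Between genotypes 0 of the 5 were called, with medians of 0.01 at 38 °C and -0.76 at 22 °C.

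Markers of other bud cells moved beside these genes in part. Summed over 16 tapetum genes, which mark the layer that feeds the pollen, the level was 725, 666 and 893 CPM in bzip17 at 38 °C and 1150, 456 and 1370 CPM in bzip17 at 22 °C, against 689, 415 and 832 CPM in WT at 38 °C and 802, 702 and 647 CPM in WT at 22 °C. At 22 °C all 15 tested tapetum genes were higher in bzip17 (median 0.94, 0 called), as were 53.1% of all genes, where the pollen members had a median of -0.88. With heat 10 of the 15 were higher and 5 lower in WT (median 0.27), and EXL6 fell. In bzip17 5 were higher and 10 lower (median -0.26), and EXL4 and EXL6 fell. The 10 meiosis genes summed to 62.3 to 74.9 CPM in bzip17 at 38 °C and 32.4 to 37.2 CPM in bzip17 at 22 °C, against 62.9 to 69.4 CPM in WT at 38 °C and 36.3 to 43.9 CPM in WT at 22 °C, and did not overlap between temperatures. Of 7 tested, 5 were higher and 2 lower at 38 °C in WT (median 0.75), and 6 were higher and 1 lower in bzip17 (median 0.59). ASY1, of the chromosome axis, rose by 2.47 in WT and by 2.74 in bzip17, where SDS and DMC1 also rose, while ZYP1a had a log2 change of -0.70 in both. In WT SDS (0.78, adjusted p = 0.029) and DMC1 (0.75, adjusted p = 0.0145) were higher too and missed only the 2-fold limit. No gene of stamen maturation (4 tested) or green tissue (5 tested) passed in any comparison. At 22 °C, though, all 5 green tissue genes were higher in bzip17 (median 0.32), as were 53.1% of all genes. Their sums there were 12100, 9200 and 9680 CPM in bzip17 against 7020, 6230 and 7480 CPM in WT, without overlap. Of the stamen maturation genes 3 were higher and 1 lower in bzip17 at 22 °C (median 0.66). The 3 embryo sac genes summed to at most 2.02 CPM, with 0 in replicate 3 of WT at 22 °C. The part that these other cells, or the stage of the buds, had in the results for pollen genes was not tested.

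**Figure D4:**
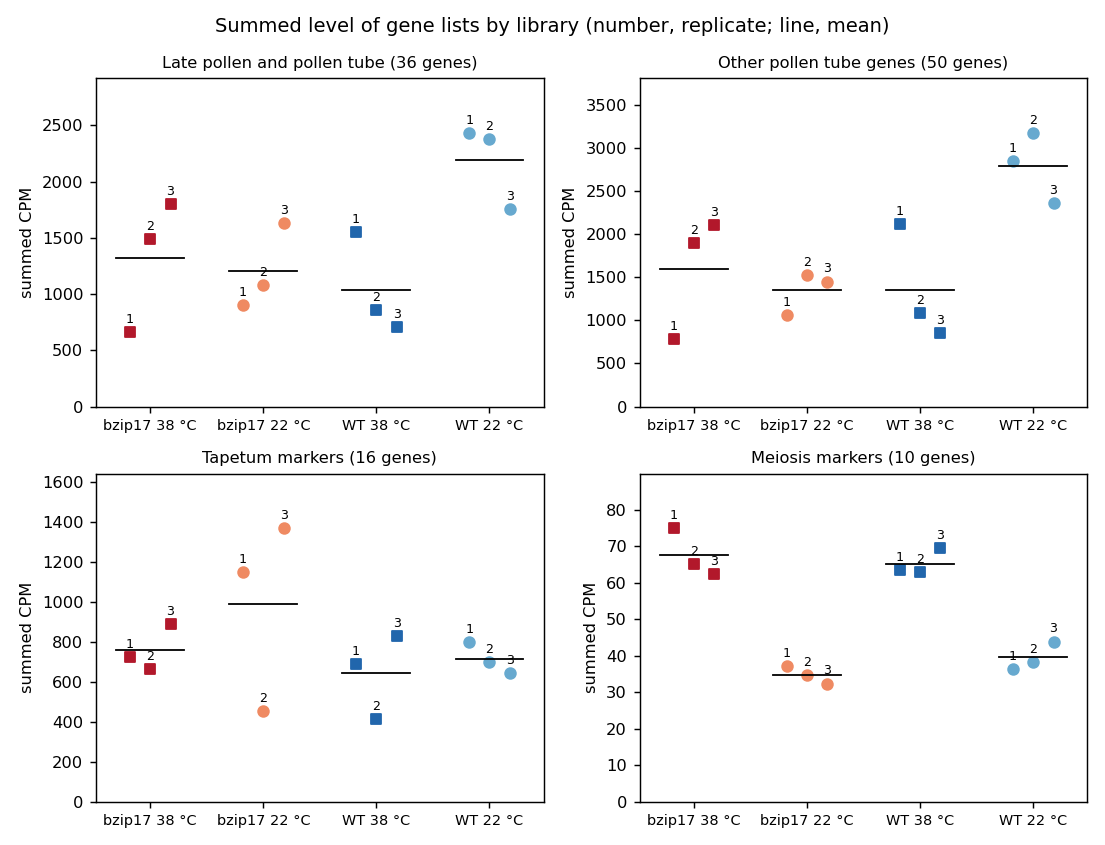
Summed CPM of the 36 late pollen genes, of 50 other pollen tube genes, of 16 tapetum genes and of 10 meiosis genes in each library, with replicate numbers beside the points and lines at group means. The late pollen genes sum to 664, 1490 and 1800 CPM in bzip17 at 38 °C and 900, 1080 and 1630 CPM in bzip17 at 22 °C, against 1550, 860 and 706 CPM in WT at 38 °C and 2430, 2380 and 1760 CPM in WT at 22 °C.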

How the data were processed

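RNA of unopened buds was measured in 12 libraries on an Illumina NovaSeq instrument. Reads were cleaned with cutadapt, mapped by HISAT2 against TAIR10 and turned into transcripts by StringTie, as the authors describe. Not given in the sources used here were tool versions, strandedness and poly(A) selection. Whole-number counts per gene and library were deposited without normalization, beside FPKM that the authors made with ballgown.

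The test covered the 20715 genes whose FPKM reached 1 in 3 or more libraries. TMM-scaled counts of all 12 libraries entered edgeR's quasi-likelihood model (4 group means, 5 comparisons), and p-values were adjusted by Benjamini-Hochberg over these genes. Rose or fell means an adjusted p below 0.05 with a change above 2-fold, and for the difference of heat responses the p limit alone applied. Each standard error is the size of the log2 change over the root of its F statistic. Alternatives were size factors of DESeq2, library totals, other filters, DESeq2, limma on log2(FPKM + 1) and log2(FPKM + 0.1), the replicate block, 2 groups only, each library left out and the rRNA-rich libraries left out. P-values measure the spread between pools of plants.

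Members and lists were chosen with earlier results of these data known. Every tested member is named. Library values are given for members called in any comparison and for the 3 with the smallest p in each. The other lists were written by hand from known functions. In bzip17, deviations of same-numbered libraries correlated at 0.208, 0.252 and 0.266, so the numbers were taken as pairs there, on these data and not from the labels. Elsewhere not every pair was over 0.1. Symbols and promoters are from RefSeq (TAIR10.1), which gave 34 of 36 member symbols and 85 of 97 list symbols. Positions are those of TAIR10 in the file. Paralogs were compared by coding-sequence identity in place of protein identity. The edgeR fit was tested on simulated data. Analyses ran in R 4.3.3 (DESeq2 1.42.0, edgeR 4.0.16 and limma 3.58.1) and Python 3.11.15 (Biopython 1.88, matplotlib 3.10.9 and pandas 2.3.3).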

Additional observations from a re-analysis of the deposited data

How the results depend on the processing

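In WT with heat, 10 members fell, and the number was 6 with library totals, 6 with an FPKM limit of 5 (fewer members tested), 6 by limma on log2(FPKM + 1), 5 by limma on log2(FPKM + 0.1) and 1 without the 4 libraries over 10% rRNA, where the median was -1.64 and WT at 22 °C keeps 1 library, assumed to vary like the other groups. With 1 library left out it was 4 to 12, and the median -1.50 to -0.63. It was 12 by DESeq2 and 13 with the replicate block, and without a filter on low values MYB120 was also called, as higher (adjusted p = 0.00933). Over all genes 2658 were called in WT with heat in the main fit and 1786 with library totals. In bzip17 with heat these were 2594 and 1300. For the other filters, limma, the 2 groups alone and libraries left out, the share of all genes was not counted. In bzip17 with heat, 1 member passed, and the number was 0 with library totals, with the 2 groups alone, by limma with either pseudocount and without the rRNA-rich libraries, 2 without a filter on low values (MYB120 added, adjusted p = 0.0100), 2 by DESeq2, 2 at an unadjusted p with the fold limit, 3 with the replicate block, and 0 to 1 with 1 library left out (median -0.24 to 0.37). For the genotype at 22 °C, 2 passed by DESeq2, where 0.237% of all genes were called lower and 0.0869% higher. At an unadjusted p with the fold limit 14 passed there, among them STP9 (1.36) and STP6 (1.40) as higher, and 11 did so for the difference of heat responses. The share of all genes under that rule was not counted. At an unadjusted p without the fold limit 15 members were lower and 2 higher for the genotype at 22 °C, where 4.69% of all genes were lower and 5.10% higher. For the difference 11 members were above 0 and 0 below, where 2.07% of all genes were above and 2.25% below. Medians with 1 library left out were -1.23 to -0.72 for the genotype at 22 °C, 0.04 to 0.74 at 38 °C and 0.92 to 1.74 for the difference. Other causes of these changes were not tested. Single-gene values were recomputed only for members called or with the 3 smallest p in each comparison of these same data. Of these values, 416 stayed on the same side of the threshold, 51 lost the call, 5 gained it and 0 changed sign. The 416 include genes called in neither fit and fits that left out a library outside the comparison. As the genes were picked by small p, sign changes were unlikely from the start, so the tally is no measure of robustness. Library totals moved the median of all genes in WT with heat to 0.41, where 82.9% of called genes were higher, against 0.02 and 49.8% with TMM. In bzip17 with heat the higher share was 65.6% against 48.5%. With the replicate block the counts over all genes were 2363 in WT with heat, 2462 in bzip17 with heat, 2 and 0 between genotypes at 22 °C and 38 °C and 0 for the difference.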
